A study of Mus musculus with 4 samples.

Results

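The genes described here are 7 of the 55403 features counted in the series: Trem2, Tyrobp, Hcst, Syk, Plcg2, Inpp5d and Cd33, taken by symbol as the core of signalling through the receptor TREM2. Each symbol matched 1 feature, and its UMIs (unique molecular identifiers, counts of captured RNA molecules) were summed per cell class and library, microglia first. The nuclei came from frozen, pooled mouse hippocampus and were profiled with a 10x Genomics 3′ kit at 10000 nuclei loaded per run. WT mice, labelled only as wild type, gave 1 library. PS19 mice carried human MAPT (tau) with the P301S change, in the 1N4R form, from the prion protein (Prnp) promoter on a B6;C3 background and gave 2 libraries. TG_PS19 mice, with 1 library, carried the PS19 transgene and in addition SORLA, overexpressed in the Rosa26 line from a CMV/β-actin promoter element, which is active in many cell types. The series calls the mice aged. Age in months, sex and the number of animals per pool are not given in the sources used here. The first comparison, PS19 against WT, sets mice with the tau transgene against wild type. The strain background of WT is not given, so transgene, background and library cannot be told apart in it. The second comparison, TG_PS19 against PS19, asks what raised SORLA adds to the tau transgene.

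TREM2 is a lipid-sensing receptor of the immunoglobulin family on microglia and other tissue macrophages. It has almost no tail inside the cell and signals through the partner adaptor DAP12, the product of Tyrobp, whose phosphorylated tail recruits the kinase SYK. DAP10, encoded by Hcst, is another adaptor that pairs with the same receptor and feeds phosphoinositide 3-kinase. PLCγ2, encoded by Plcg2, is a phospholipase downstream of SYK that raises calcium and diacylglycerol. SHIP1, encoded by Inpp5d, removes a phosphate from the lipid product of phosphoinositide 3-kinase and dampens the pathway, and CD33 is an inhibitory sialic-acid receptor that recruits phosphatases. Variants in several of the human counterparts are known as risk factors for Alzheimer's disease.

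The libraries held between 4643 and 12762 barcodes and between 20064025 and 48670533 UMIs, and 4467 to 11458 nuclei were kept. Pairs of libraries shared 5 to 32 barcode sequences, at most 0.474% of the smaller library. Classes were rebuilt by clustering without the 7 genes. Microglia were 2 clusters that each raised 13 of the 13 microglia markers, among them Csf1r, P2ry12, Tmem119 and C1qa, so the name rested on no gene described here. They held 589 nuclei in WT, 259 and 284 in PS19 replicates 1 and 2, and 410 in TG_PS19, with median depths of 1605, 2200, 2573.5 and 1642.5 UMIs. The smaller cluster held 2.72% of WT microglia, 68.0% and 69.4% of PS19 microglia and 1.46% of TG_PS19 microglia. A further cluster of 53 nuclei, led by Mrc1, Cd74 and F13a1, raised 12 of the 13 markers but was left unnamed for its leading genes. The TG_PS19 library was mixed in sex: 231 of its microglia had an Xist UMI without a Y-linked one and 81 the reverse, against 11 and 284 in WT, 1 and 175 in PS19 replicate 1, and 2 and 188 in PS19 replicate 2. Sex and the SORLA transgene therefore cannot be told apart in comparisons of the whole TG_PS19 library. Intervals of levels and shares are exact 95% intervals and cover counting error only, while those of log2 fold changes come from the fit.

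Promoter sequence is shown for the receptor that names the pathway and for the inhibitors Inpp5d and Cd33, which had the largest shares of their UMIs in microglia. RefSeq windows on mouse build GRCm38.p6 were found for 6 of the 7 genes, each the 250 bases before a transcription start. They were searched on both strands for GAGGAAGT, a form of the site bound by the myeloid factor PU.1, and for its shorter core GGAAGT, which every match of the longer motif also holds. The Cd33 window precedes an internal start and lies inside the gene span printed further on, while the Trem2 and Inpp5d windows end at the start of theirs. Capitals mark GAGGAAGT. Each line runs 5′ to 3′ on the gene's own strand.
Trem2 promoter, chr17:48346151-48346400, plus strand: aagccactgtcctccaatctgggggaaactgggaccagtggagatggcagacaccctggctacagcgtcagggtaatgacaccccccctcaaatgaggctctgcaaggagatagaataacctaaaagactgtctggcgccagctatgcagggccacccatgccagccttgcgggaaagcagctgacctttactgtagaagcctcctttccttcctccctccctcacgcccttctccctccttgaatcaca
Inpp5d promoter, chr1:87620062-87620311, plus strand: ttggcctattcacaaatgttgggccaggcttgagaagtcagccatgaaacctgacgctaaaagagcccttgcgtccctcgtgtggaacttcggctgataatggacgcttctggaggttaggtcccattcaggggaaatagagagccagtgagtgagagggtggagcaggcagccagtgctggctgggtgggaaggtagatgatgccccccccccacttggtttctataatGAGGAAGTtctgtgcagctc
Cd33 promoter, chr7:43533172-43533421, minus strand: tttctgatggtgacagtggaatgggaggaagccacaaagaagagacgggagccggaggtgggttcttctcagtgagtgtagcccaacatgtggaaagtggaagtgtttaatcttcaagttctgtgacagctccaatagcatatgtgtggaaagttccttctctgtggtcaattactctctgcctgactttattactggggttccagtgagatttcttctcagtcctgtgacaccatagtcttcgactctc
The Inpp5d window held 1 match to GAGGAAGT, which begins 20 bases before the start, and the windows of the other 5 genes held 0. The core GGAAGT was found 1 time in Inpp5d, 1 time in Cd33 and 2 times in Hcst, and 0 times in the Trem2, Syk and Plcg2 windows. Of all 32851 promoter windows of this length, 2.44% held GAGGAAGT and 19.7% held GGAAGT. These are matches of letters, not measured binding.

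Summed over the 4 libraries, microglia held most UMIs of each of the 7 genes, although for Hcst this is uncertain. With 2.68% of the UMIs of all kept nuclei, they held 92.5% of the Inpp5d UMIs and 90.1% of the Cd33 UMIs, followed by 74.2% for Syk, 63.6% for Tyrobp, 63.1% for Trem2, 53.1% for Plcg2 and 51.9% for Hcst. The Hcst share was 14 of 27 UMIs (interval 31.9% to 71.3%). For Plcg2 the share was below this in TG_PS19, at 47.0% (42.9% to 51.1%). Per kilobase of gene body, the level in microglia over the 4 libraries was highest for Trem2 (54.3 CPM per kb, UMIs of the gene per 1000000 UMIs of the class) and Tyrobp (52.3). Inpp5d followed at 22.0 and Cd33 at 15.2 CPM per kb. Syk at 2.90, Plcg2 at 2.87 and Hcst at 2.08 were the lowest on this scale. The scale divides by the genomic span, while UMIs count molecules and the counting of intron reads is not known. Its order therefore depends on gene length. By CPM alone the order was Inpp5d (2206), Trem2 (420), Plcg2 (393), Cd33 (307), Tyrobp (200), Syk (190) and Hcst (4.45).

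**Figure D1:**
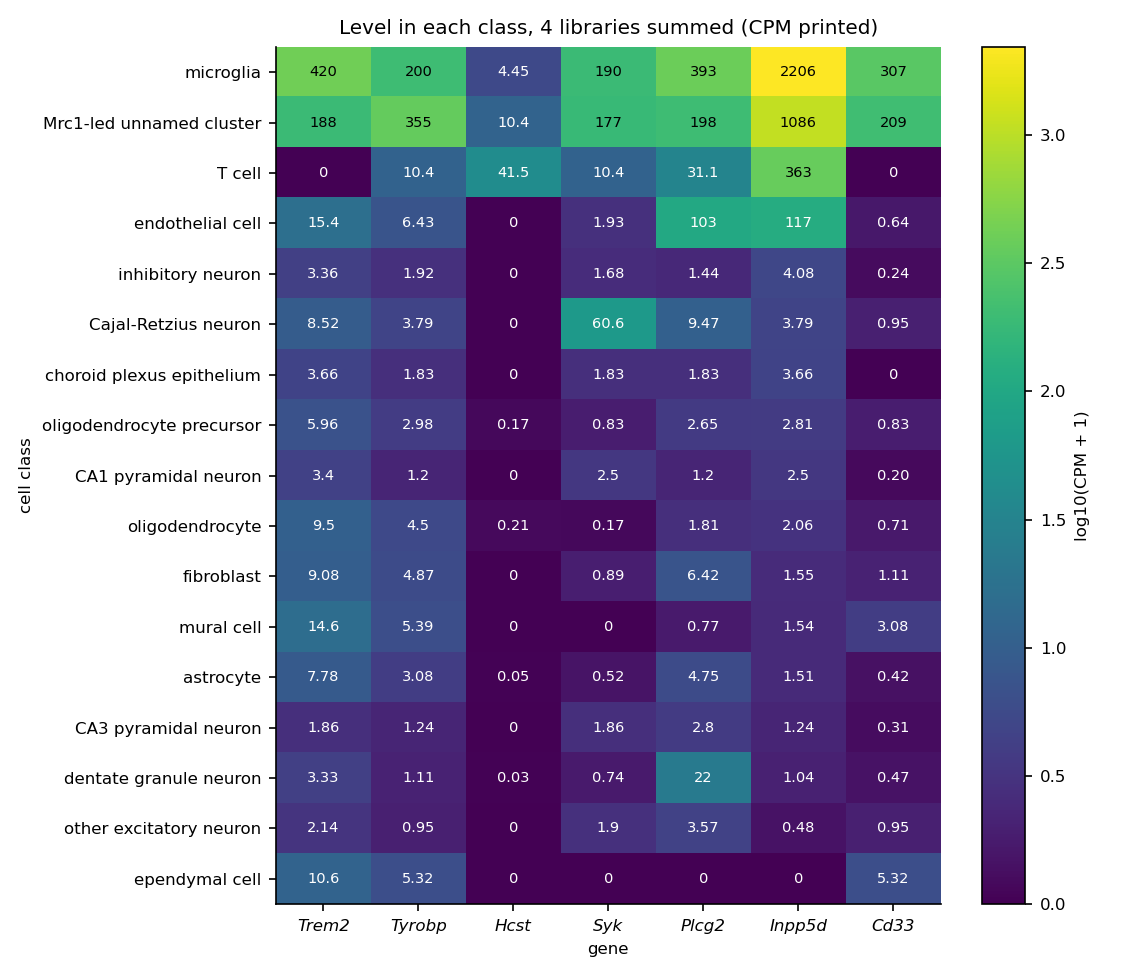
Level of each gene (columns) in each cell class (rows), with the 4 libraries summed; colour is log10(CPM + 1) and the printed number is CPM. Microglia and the Mrc1-led cluster stand above the other rows for every gene but Hcst, and single bright cells mark Syk in Cajal-Retzius neurons (60.6 CPM) and Plcg2 in endothelial cells (103 CPM).

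Trem2 itself (chromosome 17, 48346401 to 48354147, plus strand, GENCODE M21 on GRCm38) reached 420 CPM in microglia (interval 398 to 444) and 188 CPM in the Mrc1-led cluster (111 to 297), and these intervals did not overlap. No other class exceeded 15.4 CPM, the level of endothelial cells. In the 14 classes after these, the share of nuclei with a Trem2 UMI was low in each, with 2.19% of oligodendrocytes (median 2209 UMIs) and 2.61% of dentate granule neurons (median 7532 UMIs). In microglia, at a median of 1842.5 UMIs, the share was 54.3%. Neighbours in the order of the remaining classes had overlapping intervals. In the T cell cluster of 46 nuclei Trem2 had 0 UMIs, which allows up to 31.1 CPM at 3 counts.

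Tyrobp (chromosome 7, 30413760 to 30417585, plus strand) had another order. The Mrc1-led cluster was highest at 355 CPM (246 to 496), above microglia at 200 CPM (185 to 216), without overlap of the intervals. Other classes had 10.4 CPM or less. By library, the Mrc1-led cluster was above microglia in WT (433 and 162 CPM), PS19 replicate 2 (337 and 219) and TG_PS19 (369 and 171). The order was reversed in PS19 replicate 1, at 168 CPM on 2 UMIs against 267 CPM.

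Hcst lies 126 bases from the end of Tyrobp on the opposite strand (chromosome 7, 30417712 to 30419854), so that the genes point at each other without overlap. It was close to the limit of detection. Of 27 UMIs in all kept nuclei, 14 were in microglia (4.45 CPM, interval 2.43 to 7.47) and 4 in the 46 T cells (41.5 CPM, 11.3 to 106). Each library gave 1 of these T cell UMIs. T cells and microglia had intervals that did not overlap, although the T cell value rests on 4 molecules.

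Outside microglia, Syk in Cajal-Retzius neurons and Plcg2 and Inpp5d in endothelial cells held a larger part of their microglial level than the microglia markers did. Plcg2 stood at 26.1% in endothelial cells, beside 1.95% for the markers. A value above the markers was not particular to these genes, but those of Trem2 and Tyrobp were smaller and rested on few UMIs. In endothelial cells Trem2 stood at 3.67% (24 UMIs) and Tyrobp at 3.21% (10 UMIs). In mural cells they stood at 3.48% (19 UMIs) and 2.69% (7 UMIs), beside 2.26%. Syk (chromosome 13, 52583173 to 52648792, plus strand), the kinase, was 190 CPM in microglia (176 to 206) and 177 CPM in the Mrc1-led cluster (103 to 284), with overlap. It was next at 60.6 CPM (46.7 to 77.4) in Cajal-Retzius neurons, a developmental neuron type that persists in the hippocampus. The Cajal-Retzius value was 48.3 CPM in WT and 70.9 CPM in TG_PS19, with 50.1 and 78.7 CPM for the PS19 pair, so every library showed it. The other neuron classes had 2.50 CPM or less. In Cajal-Retzius neurons Syk stood at 31.8% of its microglial level, while the 13 microglia markers summed to 1.42% of theirs.

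Plcg2 (chromosome 8, 117498291 to 117635142, plus strand), the phospholipase, reached 393 CPM in microglia, 198 in the Mrc1-led cluster and 103 CPM (87.5 to 120) in endothelial cells. T cells had 3 UMIs (31.1 CPM, 6.42 to 91.0). Dentate granule neurons stood at 22.0 CPM (20.3 to 23.7), with 21.3 CPM in WT, 20.5 and 24.0 in PS19 and 22.2 in TG_PS19. That is 5.59% of the microglial level beside 1.07% for the microglia markers, and no other neuron class exceeded 9.47 CPM. The share of dentate granule neurons with a Plcg2 UMI was 15.05%, at a median of 7532 UMIs. After every nucleus was thinned to 1000 UMIs the share was 1.62%, 2.07%, 3.83% and 2.01% in WT, PS19 replicates 1 and 2 and TG_PS19. The gene overlaps the gene model Gm27361, so that reads of the 2 could be split in counting.

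Inpp5d (chromosome 1, 87620312 to 87720507, plus strand), whose promoter carries the capital letters above, was the most abundant of the 7 in microglia by UMIs, at 2206 CPM (2155 to 2259) and with a UMI in 96.1% of nuclei. The order below was clear, with intervals that did not overlap: 1086 CPM in the Mrc1-led cluster, 363 CPM in T cells and 117 CPM in endothelial cells. Inpp5d in endothelial cells was 5.30% of the microglial level while the microglia markers were at 1.95%. In T cells the order was reversed, with Inpp5d at 16.5% and the markers, which include the leukocyte gene Ptprc, at 20.8%. All remaining classes had 4.08 CPM or less. Cd33 (chromosome 7, 43524216 to 43544428, minus strand) was 307 CPM in microglia (288 to 327) and 209 CPM in the Mrc1-led cluster (128 to 322), which overlapped, and no further class exceeded 5.32 CPM, a value of 1 UMI.

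Between genotypes, Tyrobp was the only one of the 7 genes called in microglia, higher in PS19 than in WT, and Trem2 itself was not called. Of the 7 genes, 6 passed the low-count filter. The test was edgeR's quasi-likelihood F-test on UMIs summed per library, two-sided, with Benjamini-Hochberg adjustment over 10568 genes. The spread came from the 2 PS19 libraries and was shared across genes. An interval or p-value therefore does not measure a gene's own spread between the replicates alone. In PS19 against WT, 1 of the 6 was called at an adjusted p below 0.05, and it was higher. Of all genes tested, 8.81% were called, 4.53% higher and 4.28% lower. The median log2 fold change of the 6 was 0.01, the same as the 0.01 of all genes. In TG_PS19 against PS19, 0 of the 6 were called by edgeR and 0 by DESeq2. Of all genes, edgeR called 8.87%, 4.44% higher and 4.43% lower. By edgeR, 1 of the 6 had an unadjusted p below 0.05, as did 2018 of the 10568 genes. In TG_PS19 against WT, a comparison of 2 lone libraries, 0 were called by either tool, and the background was 0.861%. There 0 of the 6 had an unadjusted p below 0.05 by edgeR, beside 888 of the 10568 genes. Scaled to library totals instead, the calls of TG_PS19 against PS19 split into 386 higher and 588 lower in place of 469 and 468, and those of TG_PS19 against WT into 53 and 46 in place of 63 and 28. Since PS19 stands in both the first and the second comparison, their values for a gene are not independent.

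**Figure D2:**
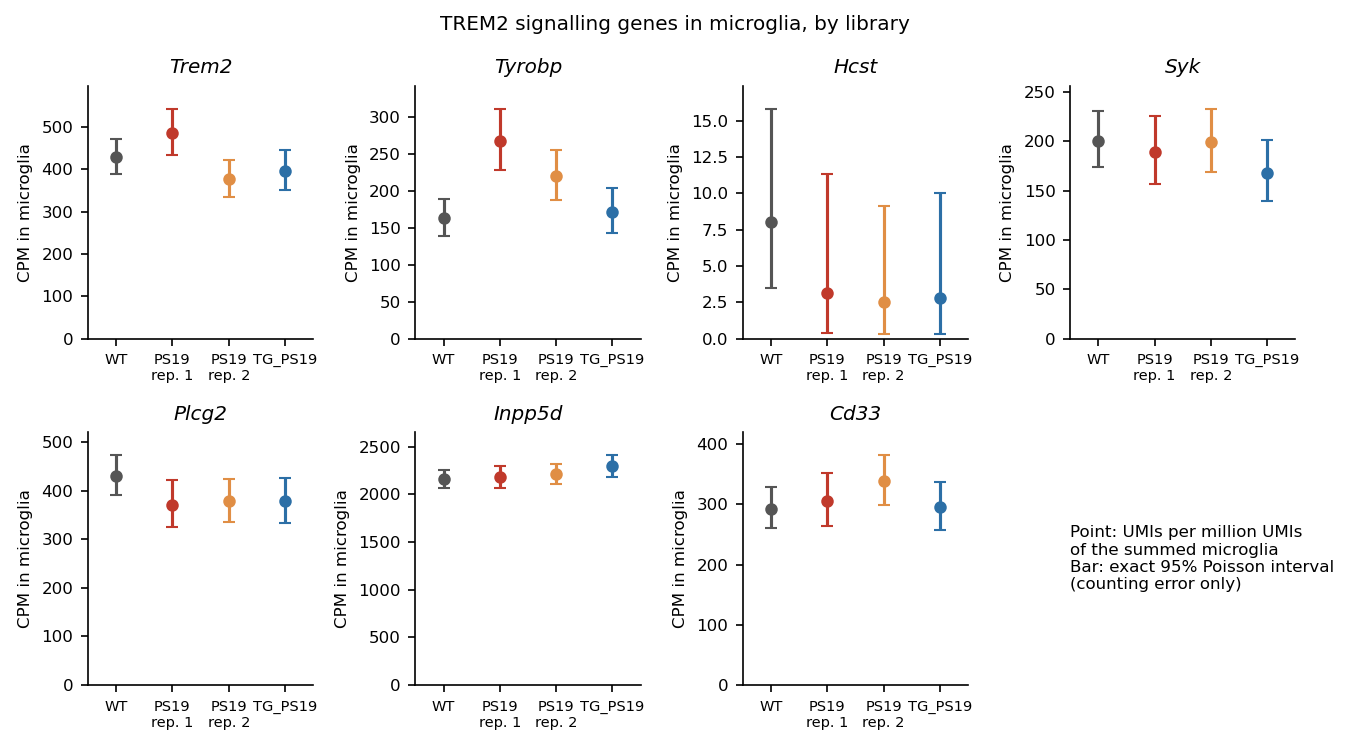
CPM of each gene in the summed microglia of each library, with exact 95% Poisson intervals; each panel has its own axis from 0. Tyrobp is higher in both PS19 libraries (267 and 219 CPM) than in WT (162 CPM) and TG_PS19 (171 CPM), while Trem2 has its highest and lowest values in the PS19 pair.

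For Trem2, the normalised level (CPM after trimmed-mean scaling) was 424 in WT, 477 and 373 in PS19 replicates 1 and 2, and 414 in TG_PS19. The PS19 pair enclosed both lone libraries, so the groups overlapped. The log2 fold change was -0.01 in PS19 against WT (SE 0.16, interval -0.31 to 0.30, adjusted p = 0.994 by edgeR) and -0.03 in TG_PS19 against PS19 (SE 0.17, interval -0.36 to 0.29, adjusted p = 0.954). After thinning to 1000 UMIs, the microglia with a Trem2 UMI were 33.2% in WT and in TG_PS19 alike, and 36.9% and 31.8% in the PS19 pair, while thinned oligodendrocytes, with median depths of 1931 to 3026 UMIs before thinning, gave 0.861% to 1.19%. Before thinning, the shares had been 48.4%, 65.3%, 63.4% and 49.5%, higher in the 2 deeper PS19 libraries.

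For Tyrobp, the adaptor, the normalised level was 160 CPM in WT, 263 and 217 in PS19 and 179 in TG_PS19. Both PS19 libraries stood above both others, and the groups did not overlap. Tyrobp rose in PS19 against WT with a log2 fold change of 0.57 (SE 0.18, interval 0.21 to 0.93, adjusted p = 0.0251 by edgeR), higher in 2 of 2 PS19 libraries. In TG_PS19 against PS19 it was -0.42 (SE 0.19, interval -0.79 to -0.04), with a p of 0.0305 that became 0.191 after adjustment. In TG_PS19 against WT it was 0.16 (interval -0.28 to 0.59, adjusted p = 0.935). Thinned shares of nuclei with a Tyrobp UMI were 15.8% in WT, 26.3% and 20.1% in PS19 and 17.3% in TG_PS19, against 0.126% to 0.662% in oligodendrocytes.

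The Tyrobp call in PS19 rested on the settings: it was lost with DESeq2 (log2 fold change 0.60, adjusted p = 0.9997), without the low-count filter (adjusted p = 0.0815), after thinning (0.61, adjusted p = 0.140), with microglia picked per nucleus by markers (0.46, adjusted p = 0.277) and in the larger cluster alone (0.40, adjusted p = 0.923). The direction held in all 16 alternatives, from 0.40 to 0.81, with adjusted p from 0.00382 to 0.9997 where a test was possible. With doublets kept, the fall in TG_PS19 against PS19 passed the test (-0.76, adjusted p = 0.00932), and over the alternatives its adjusted p ran from 0.00932 to 0.985. Restricted to the 81 TG_PS19 nuclei with Y-linked UMIs only, Tyrobp stood at 148 CPM (92.5 to 223), and in the 231 with Xist only at 186 CPM (147 to 233). The larger cluster was formed from expression. It leaves out 68.0% and 69.4% of PS19 microglia, but 2.72% of WT and 1.46% of TG_PS19 microglia. A call lost in it, for Tyrobp or for the genes named below, is therefore a description and cannot decide whether the result holds.

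Several measures moved with the PS19 libraries beside Tyrobp. Microglia were deeper there by median UMIs, and the summed level of 8 oligodendrocyte markers in microglia was 590 and 576 CPM in PS19 against 999 in WT and 972 in TG_PS19. The 8 perivascular macrophage markers, a list of interest since the Mrc1-led cluster had the highest Tyrobp, summed to 146 and 153 CPM in PS19, below 202 in WT and 192 in TG_PS19, and Cd163 and Lyve1 were at 0 in every library. With the Mrc1-led cluster added to microglia, the Tyrobp change was 0.51 (adjusted p = 0.0470). In PS19 replicate 1, which had the highest Tyrobp, the 5 NK cell markers summed to 25.2 CPM, with Gzma at 0, against 0 in the other 3 libraries, and the 7 oligodendrocyte precursor markers to 245 CPM against 36.6 to 77.9 CPM. Tyrobp is expressed by NK cells too. Without PS19 replicate 1 the Tyrobp change was 0.45, with no test possible. With every nucleus at 1000 UMIs it was 0.61 (adjusted p = 0.140 by edgeR). The part of these other cells' RNA and of depth in the result was not tested.

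Hcst had 8 UMIs in WT microglia and 2 in each of the other 3 libraries, too few for the fit. At 8.02 CPM (3.46 to 15.8) in WT against 2.52 to 3.15 CPM elsewhere, the intervals overlapped, and a difference was not detectable at this depth.

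The kinase and the phospholipase were not called. For Syk the normalised level was 198 CPM in WT, 185 and 197 in PS19 and 176 in TG_PS19, with log2 fold changes of -0.05 (interval -0.40 to 0.31) for PS19 against WT and -0.12 (-0.51 to 0.26) for TG_PS19 against PS19. WT lay just above the PS19 pair and TG_PS19 just below it. For Plcg2 it was 424 CPM in WT, 365 and 374 in PS19 and 395 in TG_PS19. Both PS19 libraries were below both others, with -0.20 (interval -0.51 to 0.11, adjusted p = 0.580 by edgeR) and 0.10 (-0.23 to 0.42, adjusted p = 0.840).

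The inhibitors were not called either. Inpp5d stood at 2128 CPM in WT, 2143 and 2182 in PS19 and 2395 in TG_PS19, with log2 fold changes of 0.02 (interval -0.27 to 0.31) and 0.15 (-0.14 to 0.44). WT was lowest and TG_PS19 highest with no overlap, but the differences did not pass the test. Cd33 stood at 289 CPM in WT, 300 and 334 in PS19 and 308 in TG_PS19, which lies within the PS19 pair, with changes of 0.14 (-0.19 to 0.46) and -0.05 (-0.38 to 0.29). A missed threshold does not show equal levels, and the intervals give the changes these libraries leave possible.

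**Figure D3:**
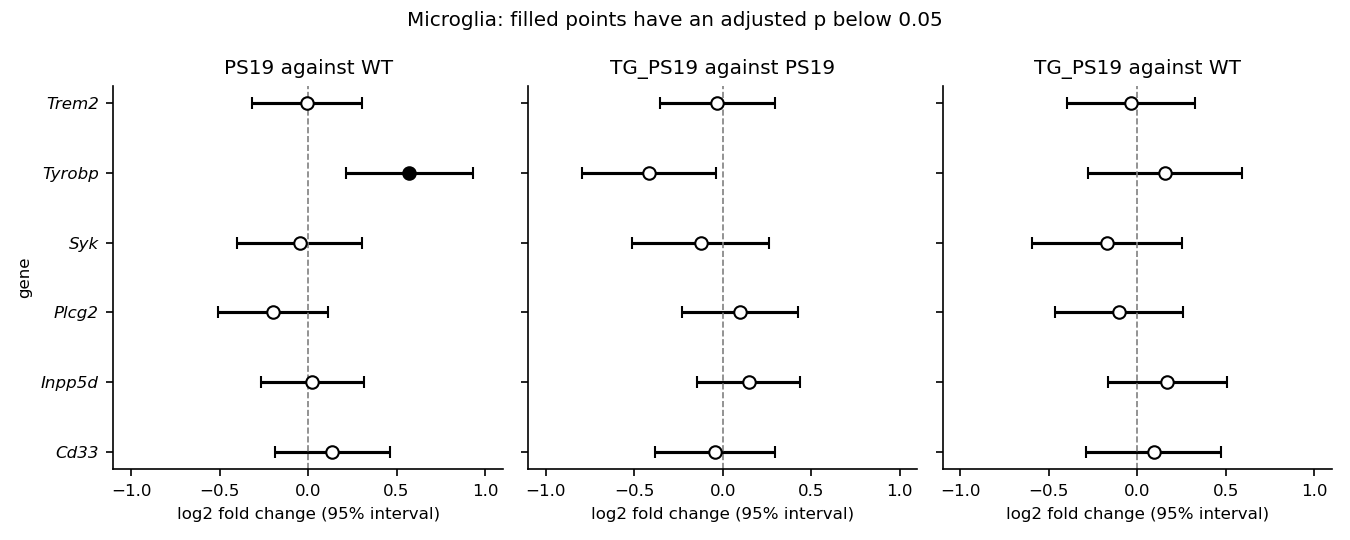
Log2 fold change with its 95% interval (x axis) for the 6 tested genes (rows) in microglia, 1 panel per comparison; filled points have an adjusted p below 0.05. Tyrobp in PS19 against WT (0.57, interval 0.21 to 0.93) is the filled point, and the interval of Tyrobp in TG_PS19 against PS19 ends just below 0.

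The 2 microglia clusters let the same genes be read at a fixed cluster, although the larger held only 83 and 87 nuclei of the PS19 replicates. They were formed from measured expression, so the values are a description without a test. Trem2 was 566 and 335 CPM in the larger cluster of PS19 replicates 1 and 2, and 460 and 391.9 CPM in their smaller cluster, so the order of the clusters differed between replicates. Tyrobp in the larger cluster was 162 CPM in WT (137 to 189), 215 and 216 CPM in PS19 (148 to 301 and 157 to 289) and 170 CPM in TG_PS19 (141 to 204), and all 4 intervals overlapped. In the smaller cluster of the PS19 replicates it was 284 CPM (239 to 336) and 221 CPM (184 to 262). The intervals of the larger and smaller cluster overlapped in both replicates.

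**Figure D4:**
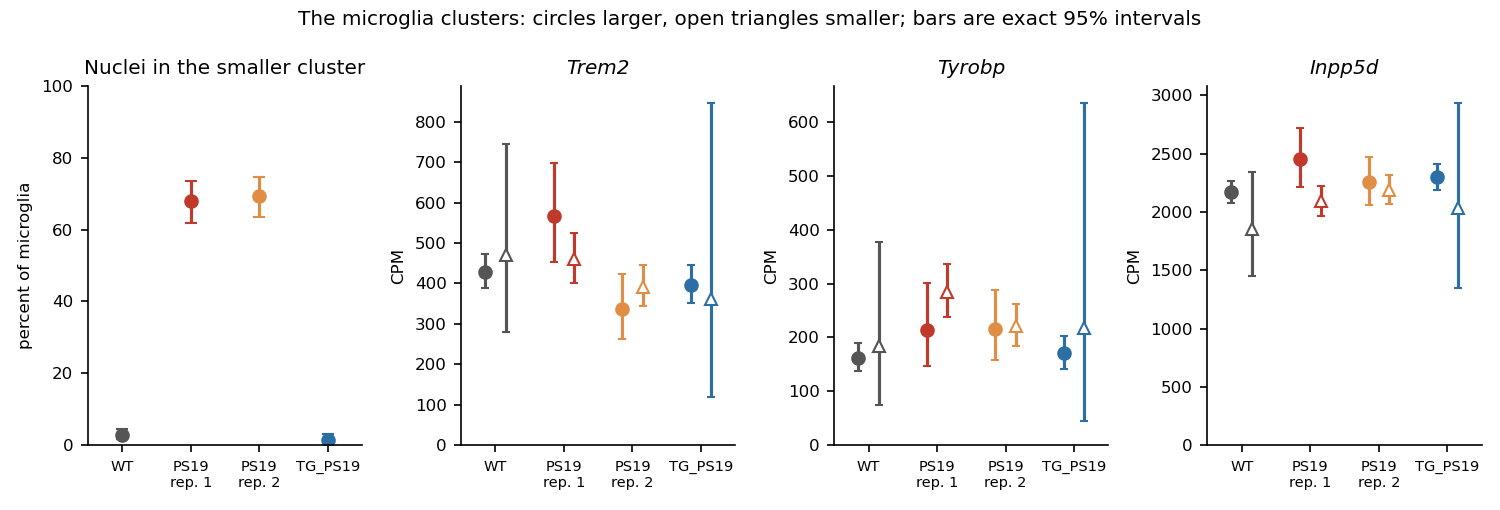
Left, percent of microglia in the smaller cluster per library; right, CPM of Trem2, Tyrobp and Inpp5d in the larger (circles) and smaller (open triangles) cluster, with exact 95% intervals. The smaller cluster holds 68.0% and 69.4% of PS19 microglia and 2.72% and 1.46% in WT and TG_PS19, where its values rest on 16 and 6 nuclei.

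Inpp5d was 2459 CPM in the larger and 2093 CPM in the smaller cluster of PS19 replicate 1, and 2257 and 2191 CPM in replicate 2. Cd33 was 319 and 301 CPM in the larger and smaller cluster of replicate 1, and 321 and 344 CPM in replicate 2. Plcg2 was 390 and 365 CPM, then 374 and 380 CPM, and Syk 156 and 199 CPM, then 206 and 197 CPM. Intervals of the larger and smaller cluster overlapped for each of these in each replicate.

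A second split used 6 genes of disease-associated microglia, a lipid-handling state known from amyloid and tau models: Clec7a, Itgax, Lpl, Axl, Csf1 and Gpnmb. Nuclei with at least 1 UMI of them were 32 of 589 in WT and 21 of 410 in TG_PS19, but 118 of 259 and 119 of 284 in the PS19 replicates. Inpp5d was lower in nuclei with such a UMI in every library: 1578 against 2194 CPM in WT, 1846 against 2513 and 2006 against 2381 in PS19, and 1722 against 2329 in TG_PS19. The intervals of the 2 sets did not overlap in any of the 4 libraries. Since nuclei with a UMI are deeper (2457 against 2044 median UMIs in PS19 replicate 1), the split was repeated after thinning. Then Inpp5d was 1895 against 2486 CPM and 1826 against 2444 CPM in the PS19 replicates, still without overlap, and 1619 against 2218 CPM in WT and 1455 against 2227 CPM in TG_PS19, with overlap.

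The genes of this paragraph are given before thinning only, so the difference in depth between the 2 sets remains in their values. Tyrobp in PS19 replicate 1 was 313 CPM with such a UMI and 222 CPM without, but 216 and 222 CPM in replicate 2. Trem2 was 490 and 482 CPM, then 361 and 391 CPM. Syk was 196 and 182 CPM in replicate 1 and 134 and 255 CPM in replicate 2, opposite in direction. Cd33 was 281 and 329 CPM in replicate 1, with overlap, and 254 and 409 CPM in replicate 2, without. Plcg2 was 338 and 404 CPM, then 331 and 419 CPM, with overlap in both.

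Outside microglia the pathway could be tested only in part. Over 8 classes, 17 pairs of a class and a member passed the filter, from 5 members. Of these, 0 were called by edgeR in any of the 3 comparisons, in the order used before, beside backgrounds of 2.31%, 4.16% and 2% of 133637 tested pairs of a class and a gene. DESeq2 called 0 as well, but its share over all pairs was not computed, so that count has no background beside it. By edgeR, 1, 1 and 0 of the 17 pairs had an unadjusted p below 0.05, a share that was not computed over all pairs. Below it were Trem2 in oligodendrocytes in PS19 against WT and Inpp5d in endothelial cells in TG_PS19 against PS19. Trem2 in oligodendrocytes had a log2 fold change of -0.60 (adjusted p = 0.249 by edgeR) and a level of 9.50 CPM over the 4 libraries. Endothelial Inpp5d was 106 CPM in WT, 160 CPM in TG_PS19 and 137 and 73.3 CPM for the PS19 replicates, with a log2 fold change of 0.69 (SE 0.34, adjusted p = 0.622 by edgeR). WT lay between the PS19 replicates and TG_PS19 above all. For the levels described above in single classes, Plcg2 in dentate granule neurons gave log2 fold changes in PS19 against WT and TG_PS19 against PS19 of 0.09 (interval -0.25 to 0.44) and 0.08 (-0.28 to 0.44), Plcg2 in endothelial cells 0.34 (-0.32 to 1.009) and -0.17 (-0.88 to 0.53), and Syk in Cajal-Retzius neurons 0.43 (-0.56 to 1.41) and 0.18 (-0.80 to 1.17), none past the threshold.

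Around the core, other genes of the pathway were called in microglia. Of 97 further genes grouped by role, 78 were tested. The lists were chosen with earlier results of these data known, so the counts and medians below describe the lists and are not a test of the pathway. In PS19 against WT, 12 rose and 2 fell, with a median log2 fold change of 0.33 beside 0.01 over all genes, of which 8.81% were called, 4.53% higher and 4.28% lower. In TG_PS19 against PS19, 3 rose and 9 fell, with a median of -0.16 beside -0.01 over all genes, of which 8.87% were called, 4.44% higher and 4.43% lower. The median was -0.16 also with the 2 genes at 0 UMIs in TG_PS19 set at their bound of 3 counts. With DESeq2 the counts of calls were 4 and 3, and in the larger cluster alone 1 and 0. In PS19 against WT, the calls of Clu, Lilrb4a, Cd300lf and Fcgr3 were among those lost with DESeq2, and those of Siglech, Cd300lf, Fcgr3 and Ptprc among those lost in the larger cluster alone.

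**Figure D5:**
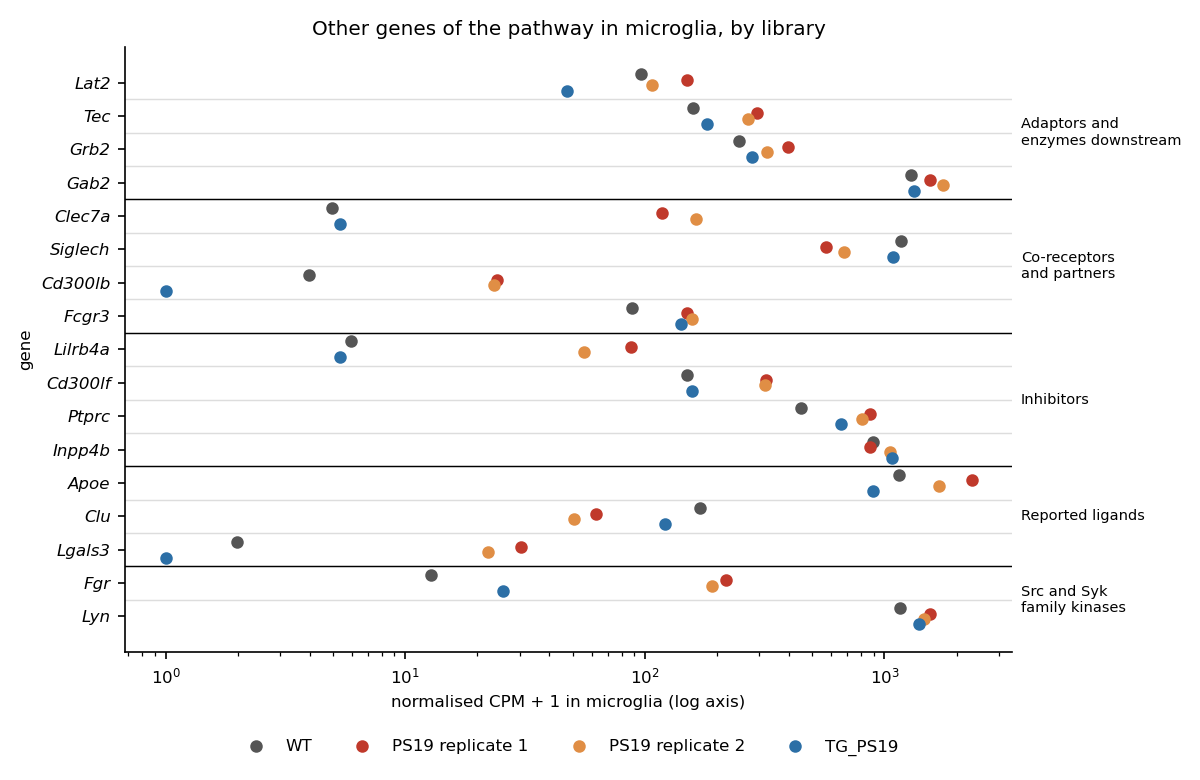
Normalised CPM + 1 in microglia (log axis) of named genes around the core, grouped by role, 1 point per library. Clec7a, Fgr and Lilrb4a lie far to the right in both PS19 libraries and near WT in TG_PS19; Siglech and Clu show the opposite order.

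Among the reported ligands, 2 of 5 tested rose and 1 fell in PS19. Apoe, the lipoprotein that TREM2 binds, was 1148 CPM in WT, 2307 and 1687 in PS19 and 895 in TG_PS19. Both PS19 libraries were above the others, with log2 fold changes of 0.80 (SE 0.15, adjusted p = 9.36e-06 by edgeR) and -1.16 (SE 0.16, adjusted p = 7.29e-11). Clu, which encodes the lipoprotein clusterin, ran the other way at 168, 61.8, 49.8 and 121 CPM, with -1.60 and 1.12. Clu is an astrocyte gene too, and the 8 astrocyte markers in microglia summed to 699, 532, 458 and 641 CPM in the same order. Their part in the Clu and Apoe values was not tested. Lgals3, which encodes a galectin, had 1 UMI in WT, 19 and 17 in PS19 and 0 in TG_PS19, and was called in both comparisons. In TG_PS19 against PS19, the Lgals3 call was lost in TG_PS19 nuclei with Y-linked UMIs. The Clu call of that comparison was lost there, after thinning and in the larger cluster alone. Both Apoe calls were lost in the larger cluster alone and with microglia picked by markers, and the call in PS19 against WT also with DESeq2.

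Among the receptors that use the same adaptors or the same signalling motif, 3 of 8 tested rose and 1 fell in PS19. Clec7a, a glucan receptor that also signals through SYK, had 4 UMIs in WT, 76 and 131 in PS19 and 3 in TG_PS19. Its rise in PS19 was 5.11 on the log2 scale (SE 0.44, adjusted p = 3.58e-28 by edgeR), and it was called lower in TG_PS19. It is 1 of the 6 genes of the split above. Cd300lb had 3, 15, 18 and 0 UMIs in the same order and was called in both comparisons. Its call in TG_PS19 against PS19 was lost in TG_PS19 nuclei with Y-linked UMIs. Fcgr3, an IgG receptor, rose by 0.81 (SE 0.22, adjusted p = 0.00436), from 87.1 CPM in WT to 148 and 156 in PS19, and stood at 141 CPM in TG_PS19. Siglech, a sialic-acid receptor that pairs with the Tyrobp product and is used here as a microglia marker, was 1165 CPM in WT, 572 and 674 in PS19 and 1082 in TG_PS19. The groups did not overlap, and its changes of -0.90 and 0.79 were both called. The call in TG_PS19 against PS19 was lost with doublets kept and in the larger cluster alone.

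Among the other kinases of the Src and SYK families, 1 of 6 tested was called. Fgr, a Src-family kinase, was 11.9 CPM in WT, 218 and 189 in PS19 and 24.7 in TG_PS19, with log2 fold changes of 4.08 (SE 0.32, adjusted p = 1.29e-33 by edgeR) and -3.03 (SE 0.31, adjusted p = 2.67e-20). Lyn, the most abundant kinase of the list at 1158, 1548, 1465 and 1393 CPM, was not called (0.38, adjusted p = 0.105). Fgr kept its calls in 13 of the 14 tested alternatives in each comparison, and lost them in the larger cluster alone.

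Of 32 tested adaptors and enzymes downstream, 2 rose in PS19: Tec, a kinase that activates PLCγ enzymes (0.83, SE 0.18), and the adaptor Grb2 (0.54, SE 0.17). The Tec call was lost with DESeq2 and in the larger cluster alone, and the Grb2 call in these as well as without the low-count filter, after thinning and with microglia picked by markers. In TG_PS19 against PS19, Tec (-0.64) and the adaptor Lat2 (-1.43, SE 0.28) fell. The fall of Tec was lost with DESeq2, after thinning, in TG_PS19 nuclei with Y-linked UMIs and in the larger cluster, and that of Lat2 in the larger cluster. Lat2 was 94.98 CPM in WT, 148 and 106 in PS19 and 46.5 in TG_PS19. The scaffold Gab2, at 1286, 1555, 1749 and 1325 CPM, was not called (0.36, adjusted p = 0.133).

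Among the other inhibitors, 6 calls were made in the first 2 comparisons. Of 20 tested, 4 rose and 0 fell in PS19: Lilrb4a, Cd300lf, Siglecf (8 UMIs in WT, 20 and 21 in PS19, 8 in TG_PS19) and the phosphatase Ptprc (CD45), which is itself a microglia marker here and can activate Src-family kinases as well as restrain signalling. Lilrb4a had 5 UMIs in WT, 56 and 44 in PS19 and 3 in TG_PS19, with a change of 3.77 (SE 0.47) in PS19, and was called lower in TG_PS19. Cd300lf was 149 CPM in WT, 318 and 318 in PS19 and 157 in TG_PS19, with 1.09 and -1.02 (SE 0.18 and 0.19). Both Cd300lf calls were lost with DESeq2 and in the larger cluster alone. Ptprc was 446, 872, 802 and 655 CPM, called in PS19 (0.91) and not in TG_PS19 against PS19 (-0.35, adjusted p = 0.170). Inpp4b, a lipid phosphatase at 891, 873, 1052 and 1079 CPM, was not called.

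Of 7 tested genes for shedding and cleavage, 0 were called by edgeR in any comparison. Adam10, the main sheddase of TREM2, was 366 CPM in WT, 354 and 396 in PS19 and 408 in TG_PS19, with 0.04 (adjusted p = 0.944) and 0.12 (adjusted p = 0.792). WT lay within the PS19 pair. Adam17, another sheddase, was 196, 255, 232 and 202 CPM, higher in both PS19 libraries, and was not called (0.31, adjusted p = 0.363).

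Across the 16 named classes, the pattern of Trem2 was closest to those of C1qc (Pearson r = 0.99 of log2(CPM + 1)) and Csf1r (0.97), and that of Tyrobp to Ctss, C1qa and C1qb (0.99, 0.99 and 0.98). Cd33 was closest to Glrp1, Pilra and Fcrls (0.97, 0.96 and 0.96), and Inpp5d to Arhgap27os3 and Tnfrsf1b (0.97 and 0.96). For Syk and Plcg2, with their second classes, the best values were lower: 0.91 for Man1a2 and 0.87 for 1700084C06Rik. Hcst was closest to Ifi214 (1.00), on a T cell value of 4 UMIs. Among the members, Trem2 and Cd33 had r = 0.89, Tyrobp and Cd33 0.88, and Trem2 and Hcst -0.05. Csf1r and C1qa are among the markers that named the microglia class. The classes also share libraries, depth and free RNA, so these are descriptions without a test.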

How the data were processed

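Per the file headers, the authors deposited raw UMI counts per gene and nucleus, which the file headers trace to Cell Ranger 7.1.0, on GRCm38 per the submitters' processing notes. The annotation release and the counting of intron reads are not given in the sources used here. Of 55403 features, 54349 matched GENCODE M21, whose positions are printed. All 4 libraries were used, and 0 value columns were left unmapped. The members and gene lists were chosen with earlier results of these data known.

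Nuclei were kept from 500 UMIs and 300 genes upward, if mitochondrial UMIs did not exceed 5%. Doublets were scored by a rewritten Scrublet method at 0.8% per 1000 nuclei, which removed 1303 WT, 172 and 194 PS19 and 756 TG_PS19 nuclei. Clusters (36) came from 2000 variable genes without the 7 members, 30 principal components and the Leiden method at resolution 1.0 on 15 neighbours (leidenalg 0.10.2, scikit-learn 1.9.0, Python 3.11.15, numpy 2.4.6, scipy 1.17.1). A cluster took a class name if 4 of its markers were raised, or else 3 that made up 50% of the list, where raised meant a log2 fold of at least 1 and detection in 10% of nuclei. Names mean resemblance by these markers, and 539 WT, 52 and 81 PS19 and 793 TG_PS19 nuclei stayed unnamed.

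Counts were summed per library and class with at least 50 nuclei in every library. They were tested with edgeR 4.0.16 (R 4.3.3, limma 3.58.1) after its low-count filter and TMM scaling, two-sided, with Benjamini-Hochberg adjustment at 0.05. The PS19 pair supplied the 1 residual degree of freedom, and the lone WT and TG_PS19 libraries were assumed to vary like that pair. The labels do not say that libraries came from separate animals. The p-values thus measure a spread between these samples that may be technical and that edgeR shares across genes. Intervals of levels and shares are exact 95% Poisson and Clopper-Pearson intervals. Limits for a count of 0 use 3 counts. Intervals and limits cover counting error only. Thinning drew 1000 UMIs from each nucleus. The edgeR fit of PS19 against WT in microglia was first tested on simulated counts, and the other fits were not.

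Alternatives were RLE scaling, library totals, DESeq2 1.42.0, no low-count filter, a robust prior, only the groups compared, leaving out each PS19 replicate, doublets kept, resolution 2.0, thinning, microglia picked per nucleus by markers, the members allowed for clustering and TG_PS19 nuclei with Y-linked UMIs alone. The larger cluster alone and the Mrc1-led cluster added were chosen after seeing the data. Named pathway genes were at most 15 called in microglia by smallest adjusted p in the first 2 comparisons and the 5 with the highest level. Siglecf and the sheddases were named in addition, after their values were seen. A further called pathway gene is not reported here by name.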

Additional observations from a re-analysis of the deposited data

How the results depend on the processing

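No paired analysis was possible because only PS19 has 2 numbered replicates, and the groups share fewer than 2 numbers. Of 270 alternative log2 fold changes of the 6 tested genes, 238 kept their direction and, where tested, their side of the threshold. Values without a test counted among the 238 if they kept their direction and lay within the SE of the main value. Another 24 changed sign, all from main values between -0.20 and 0.17. The cause of these changes was not tested.

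For PS19 against WT, members called fell from 1 to 0 without the low-count filter, with DESeq2, after thinning, with microglia by markers and in the larger cluster alone. Other pathway genes called (14) became 4 with DESeq2, 26 with doublets kept, 9 after thinning and 1 in the larger cluster, and all genes called (931) became 66 with DESeq2, 389 after thinning and 83 in the larger cluster. For TG_PS19 against PS19, members called rose from 0 to 1 with doublets kept (Tyrobp), pathway genes (12) became 3 with DESeq2 and 0 in the larger cluster, and all genes (937) became 84 with DESeq2, 1488 with doublets kept, 394 after thinning, 407 in Y-linked nuclei and 115 in the larger cluster. For TG_PS19 against WT, pathway genes (1) became 2 with library totals and 0 with DESeq2, doublets kept, thinning, markers per nucleus or Y-linked nuclei. All genes (91) became 2 with DESeq2, 41 with doublets kept, 11 after thinning, 207 with markers, 10 in Y-linked nuclei and 29 in the larger cluster. In other classes, doublets kept gave 1 call in place of 0 in each of TG_PS19 against PS19 and TG_PS19 against WT, Inpp5d in fibroblasts (1.56, adjusted p = 0.0138, and 1.29, adjusted p = 0.0473, by edgeR). The share of calls over all pairs was not computed with doublets kept.

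Sign changes in PS19 against WT were Trem2 with RLE (0.00215), DESeq2 (0.0195), doublets kept (0.29), members allowed for clustering (0.00179) and the larger cluster (0.0244), Syk and Plcg2 with doublets kept (0.28 and 0.11) and Inpp5d with markers (-0.0157). In TG_PS19 against PS19 they were Plcg2 with doublets kept (-0.11), markers (-0.13) and Y-linked nuclei (-0.0833) and Inpp5d with doublets kept (-0.11) and markers (-0.0830). In TG_PS19 against WT they were Trem2 with doublets kept (0.0224), Tyrobp with markers (-0.0486) and Y-linked nuclei (-0.0874), Inpp5d with markers (-0.0987) and Cd33 with markers (-0.20) and Y-linked nuclei (-0.0393). Without PS19 replicate 1 or 2, which leaves no test, PS19 against WT ranged from -0.18 to 0.15 for Trem2, 0.45 to 0.69 for Tyrobp, -0.11 to 0.00366 for Syk, -0.24 to -0.17 for Plcg2, -0.00978 to 0.0469 for Inpp5d and 0.03 to 0.22 for Cd33. TG_PS19 against PS19 ranged from -0.22 to 0.13 for Trem2, -0.57 to -0.30 for Tyrobp and -0.14 to 0.0273 for Cd33.

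Hcst, with 14 UMIs in microglia, was under the low-count filter and had no fold change.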
